A study of Homo sapiens with 8 samples.

Results

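ABCB1 encodes P-glycoprotein, the drug efflux pump of the plasma membrane, and lies in band 7q21 between its paralog ABCB4 and a row of unrelated genes. The values here are those of 10 genes of the 57820 in the count table: ABCB1, ABCB4, RUNDC3B, SLC25A40, DBF4, CROT, TMEM243, TP53TG1, ADAM22 and SRI. ABCB1 was chosen by its measured difference in counts between SP and NSP cells, so its own values are given as a description without a test. The other 9 genes were taken as its paralog and as genes that flank it on the chromosome. All 10 were found in the table by their gene identifiers, and each had at least 1 count.

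RNA-seq was performed on the established bladder cancer cell line J82, of human origin, grown in DMEM with fetal bovine serum. Cells were stained with the DNA dye Hoechst and sorted by flow cytometry into side population (SP) cells, which retain little dye, and non-side population (NSP) cells, which are the other sorted cells. Each group had 4 libraries, numbered 1 to 4, and both came from the same line with no treatment named in the labels. The labels do not say whether the replicates were separate cultures or separate sorts, so a p-value measures the spread between these libraries, which may be technical.

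P-glycoprotein belongs to the ATP-binding cassette family. It uses ATP to move many unrelated hydrophobic compounds out of the cell, and the Hoechst dye is among its substrates, as it is for ABCG2. A gate drawn on dye retention and the expression of these transporters are therefore not independent measures. ABCB4, which arose from the same ancestral gene, moves phosphatidylcholine into bile and is mostly a liver protein. In cell lines selected in drugs for multidrug resistance, ABCB1 is often amplified together with neighbours such as ABCB4, SRI, DBF4 and SLC25A40, which is why the flanking genes are shown beside it.

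SP libraries held 1431823 to 1697218 counts in total and NSP libraries 1489033 to 2073526, and 9309 genes had enough counts for the test. These totals are a small part of the raw reads per sample that the authors report, and the reason was not tested. CPM is the count scaled to a TMM-normalized library size of 1000000. Of the 10 genes, ABCB1, TMEM243 and SRI passed the filter on low counts, ABCB1 only through its SP libraries. The other 7 held 1 to 40 counts over the 8 libraries. Urothelial markers were unevenly detected. KRT8 had a mean of 3298 CPM in SP and 4022 CPM in NSP cells, UPK3A, KRT20 and TP63 had 0 counts, and of 16 urothelial markers 5 were tested and KRT7 was called lower (log2 fold change -1.35). Of 4 mesenchymal markers, all tested, FN1 was called lower (log2 fold change -1.25, edgeR adjusted p = 8.63e-04). VIM was at -0.76 (adjusted p = 0.0784 in edgeR) and was called lower with the replicate block (adjusted p = 3.39e-06) and by DESeq2. The part of these markers in the differences below was not tested. In the main edgeR fit 1.63% of the 9309 tested genes were called higher and 2.03% lower, the background for these and all later counts of called genes. With the replicate block the shares were 5.89% and 7.0%, and with DESeq2 1.28% and 2.05%. Of 7 markers of blood, endothelial and immune cells, PTPRC, CD3E and HBB had 0 counts and CD68 had the most (7.87 CPM in SP and 8.58 CPM in NSP cells).

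The counts differed by strand in a way that bears on every value below. Among 595 pairs in which a long noncoding RNA (lncRNA) shared 50% or more of its exon bases with a coding gene that runs the opposite way, each pair with 100 counts or more, the lncRNA had more counts per kb in 88.2%. On the mitochondrial genome MT-ND6 is the 1 coding gene on the minus strand and held 612556 counts per kb, while the 12 coding genes of the plus strand had 2844 to 15142 counts per kb. The strand setting of the counting is not given in the sources used here. A count on a gene can therefore not be taken as the amount of its own RNA, and for a gene with no exon opposite it may hold only a part of its reads. The share of mitochondrial coding counts that fell on the plus strand also moved with the groups, from 26.6% to 29.8% in SP and from 16.4% to 21.1% in NSP libraries. The ratio of plus to minus strand was 0.72 higher in SP cells on the log2 scale. The part of strand in the differences below was not tested.

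On GRCh37 the 10 genes lie on chromosome 7 in the order TMEM243, TP53TG1, CROT, ABCB4, ABCB1, RUNDC3B, SLC25A40, DBF4, ADAM22 and SRI, from 86825476 to 87856308. ABCB1 spans 87132333 to 87342639 on the minus strand, with 6422 bp of merged exons. It is transcribed from an upstream and a downstream start that lie 112411 bp apart, and counts per gene cannot tell them apart. RUNDC3B starts on the plus strand 27514 bp from the downstream start, between both ABCB1 starts, so its first part runs across ABCB1 introns in the opposite direction. No annotated exon of the other strand touches an exon of ABCB1, RUNDC3B, ABCB4, CROT, TP53TG1 or ADAM22.

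Of the 10 genes, 9 matched a table of RefSeq sequences of the 250 bases before transcription starts. The windows of ABCB1 are shown because it was the gene that differed, that of RUNDC3B because it lies inside ABCB1, and that of SRI because it is a tested neighbour on the strand of ABCB1, with the window of its start nearer to ABCB1 taken. Bases inside annotated exons were left out, except 30 bases around the inverted CCAAT box of the downstream ABCB1 start. Each sequence is written 5′ to 3′ on the strand of its gene at its GRCh37 position, and capitals mark CCAAT or ATTGG and the GC box GGGCGG or CCGCCC.
ABCB1 before the upstream start, chr7:87342640-87342861, minus strand: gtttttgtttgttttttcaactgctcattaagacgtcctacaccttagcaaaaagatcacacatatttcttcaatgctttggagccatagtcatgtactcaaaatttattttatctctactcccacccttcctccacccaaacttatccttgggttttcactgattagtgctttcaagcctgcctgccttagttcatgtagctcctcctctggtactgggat
ABCB1 before the downstream start, chr7:87230395-87230450, minus strand: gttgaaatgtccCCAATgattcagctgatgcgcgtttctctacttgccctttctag
ABCB1 inverted CCAAT box, chr7:87230262-87230291, minus strand: gtggtgaggctgATTGGctgggcaggaaca
RUNDC3B, chr7:87257464-87257713, plus strand: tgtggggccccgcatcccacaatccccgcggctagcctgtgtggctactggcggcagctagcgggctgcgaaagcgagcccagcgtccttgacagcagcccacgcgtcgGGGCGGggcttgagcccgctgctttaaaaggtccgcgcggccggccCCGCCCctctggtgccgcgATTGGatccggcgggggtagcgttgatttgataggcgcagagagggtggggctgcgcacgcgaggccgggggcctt
SRI, chr7:87849381-87849603, minus strand: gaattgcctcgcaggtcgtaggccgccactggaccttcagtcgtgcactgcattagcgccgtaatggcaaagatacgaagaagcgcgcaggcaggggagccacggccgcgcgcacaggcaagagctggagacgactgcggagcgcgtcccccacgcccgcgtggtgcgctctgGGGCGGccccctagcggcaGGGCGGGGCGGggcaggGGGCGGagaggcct

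The 250 bases before the downstream ABCB1 start held 2 CCAAT pentamers and 0 GC boxes, and those before the upstream start held 0 of each. The window of RUNDC3B held 1 CCAAT and 2 GC boxes. The 250 bases before the SRI start nearer to ABCB1 held 0 CCAAT and 5 GC boxes. Over 35116 windows of this length, 32.0% held CCAAT and 42.6% held the GC box on either strand. The forkhead heptamer GTAAACA or TGTTTAC was found in 2.98% of all windows and in 0 of the 13 windows of the 9 genes. The box TATAAA or TTTATA was found in 10.7% of all windows and, among the 9 genes, only in the upstream SRI window. These letters were searched on both strands as exact matches only, so variants of a box were not counted. Matches may overlap, and a match or its absence says nothing here about binding.

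ABCB1 had higher counts in every SP library than in any NSP library. It had 33.1, 23.5, 30.9 and 33.9 CPM in SP libraries 1 to 4, from 46, 35, 57 and 46 counts. It had 1.60, 1.48, 8.29 and 4.84 CPM in NSP libraries 1 to 4, from 3, 3, 13 and 7 counts. The lowest SP value, in replicate 2, was above the highest NSP value, in replicate 3. The mean was 30.3 ± 4.76 CPM in SP and 4.05 ± 3.23 CPM in the NSP group (SD, n = 4 each), with a log2 fold change of 2.96 and a standard error of 0.38. The strand ratio of the mitochondrial genes given above differed in the same direction by 0.72 on this scale. In bulk libraries, more cells with reads on ABCB1 and more such reads per cell cannot be told apart. Whether these reads come from ABCB1 RNA of its own strand was not tested. The NSP values varied more than the SP values relative to their mean, and NSP replicate 3 held 13 of the 26 NSP counts. Without that library the log2 fold change was 3.58, a change of over 1.5 times in fold, and it stayed between 2.65 and 3.06 when any other single library was left out.

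**Figure D1:**
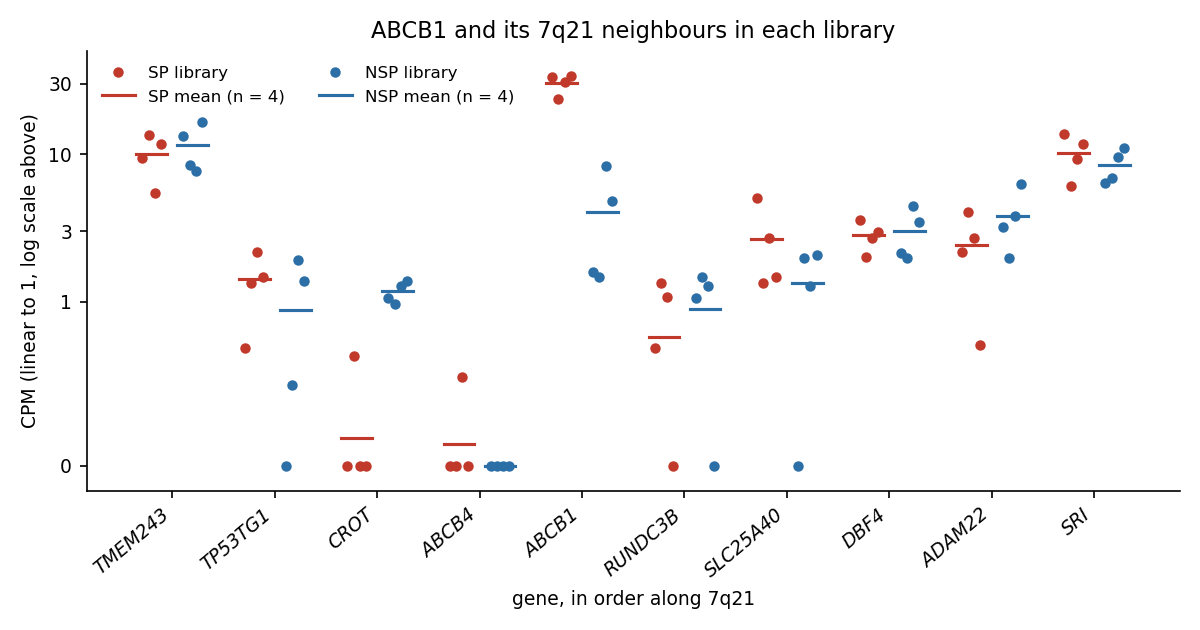
CPM of each gene (vertical axis, linear up to 1 and logarithmic above) in the 4 SP and 4 NSP libraries, with points for libraries and bars for group means. ABCB1 had means of 30.3 CPM in SP and 4.05 CPM in NSP cells, while the points of the 2 groups overlapped for the other genes except CROT.

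The paralog ABCB4, the phosphatidylcholine transporter, was near the limit of detection. It had 0 counts in SP libraries 1, 2 and 4, 1 count in SP library 3 and 0 counts in each NSP library. A count of 0 over the NSP libraries allows up to 3 counts, or 0.434 CPM, so no fold change is given. The ABCB1 counts of SP cells had no counterpart of similar size on ABCB4, and how reads that match both genes were counted is not given in the sources used here.

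RUNDC3B, a protein with a RUN domain that begins inside ABCB1 on the other strand, had few counts in either group. The counts were 1, 2, 2 and 0 in SP libraries 1 to 4 and 2, 3, 2 and 0 in NSP libraries 1 to 4. The groups overlapped throughout, and library 4 of each group had none. Without a filter on low counts the log2 fold change was -0.29 (standard error 0.99, 95% interval -2.24 to 1.66, adjusted p = 0.927 with Benjamini-Hochberg adjustment in edgeR's quasi-likelihood fit). An interval of this width leaves differences of several-fold in either direction undetectable at these counts.

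On the telomeric side, SLC25A40 encodes a mitochondrial carrier linked to glutathione import, and DBF4 encodes the activating subunit of the CDC7 kinase that fires replication origins. They are transcribed away from each other, and 145 bp of their first exons overlap on opposite strands. SLC25A40 had 5.04, 1.34, 2.71 and 1.47 CPM in SP libraries 1 to 4 and 0, 1.98, 1.28 and 2.07 CPM in NSP libraries 1 to 4. The values overlapped, with SP replicate 1 the highest and NSP replicate 1 at 0. The log2 fold change without a filter was 0.95 (standard error 0.72, edgeR adjusted p = 0.639). DBF4 had 3.603, 2.01, 2.71 and 2.94 CPM in SP libraries 1 to 4 and 2.13, 1.98, 4.46 and 3.46 CPM in NSP libraries 1 to 4. The groups overlapped, and the highest DBF4 value was in NSP replicate 3. Its log2 fold change without a filter was -0.08 (standard error 0.60, adjusted p = 0.976), and it became positive at 0.15 without NSP replicate 3 and at 0.039 without SP replicate 2.

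ADAM22, a catalytically inactive member of the ADAM family that binds LGI1 at synapses, had 2.16, 4.02, 2.71 and 0.736 CPM in SP libraries 1 to 4. In NSP libraries 1 to 4 it had 3.19, 1.98, 3.83 and 6.22 CPM. The groups overlapped, although library 4 held both the lowest SP and the highest NSP value. The log2 fold change without a filter was -0.59 (standard error 0.58, edgeR quasi-likelihood adjusted p = 0.639).

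SRI, which encodes the calcium-binding protein sorcin, had the most counts of the 10 genes on the telomeric side. It had 13.7, 6.03, 9.20 and 11.8 CPM in SP libraries 1 to 4 and 6.38, 6.91, 9.57 and 11.1 CPM in NSP libraries 1 to 4. The lowest value of the 8 was in an SP library, and so was the highest. The log2 fold change was 0.27 (standard error 0.32, 95% interval -0.42 to 0.96, edgeR quasi-likelihood adjusted p = 0.741, exact two-sided permutation p = 0.486). This interval does not exclude a rise of up to 0.96 on the log2 scale. The lncRNA SRI-AS1 shares 84 bp of exon with SRI on the other strand and had 346 counts, or 601 counts per kb, where SRI had 27.9 counts per kb. SRI-AS1 was not called either (log2 fold change -0.25, standard error 0.25, adjusted p = 0.679).

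On the centromeric side, CROT encodes a peroxisomal carnitine octanoyltransferase that hands shortened fatty acids to mitochondria. It had 0, 1, 0 and 0 counts in SP libraries 1 to 4 and 2 counts in each NSP library. The groups did not overlap, in the direction opposite to ABCB1 (two-sided exact permutation p = 0.0286 on log2(CPM + 1), the smallest that 4 against 4 libraries allow). The ratio of NSP to SP cells was 7.04, with an exact interval of 0.943 to 312 that covers counting error only and includes 1. CROT did not pass the filter. Without a filter its log2 fold change was -2.38 with an adjusted p of 0.526 in the edgeR test, and -2.41 with an adjusted p of 0.818 with the replicate block. Without SP replicate 2, which held the only SP count, it was -4.03. Permuted within same-numbered pairs, an alternative added after the data were seen, the exact p for CROT was 0.125, the smallest that 4 pairs allow. The groups did not overlap for ABCB1 and CROT among the 10 genes, and for 9.75% of all tested genes, with SP above in 4.78% and NSP above in 4.97%. CROT is not among the tested genes, and the share was not computed for genes with as few counts. ABCB1 was chosen by its difference. Permutation tests were run on the 9 genes other than ABCB1, and the other 8 gave p from 0.257 to 1 over libraries and from 0.125 to 1 within pairs.

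TP53TG1, a p53-inducible lncRNA that starts beside CROT on the other strand, had 1, 2, 4 and 2 counts in SP libraries 1 to 4 and 0, 1, 3 and 2 counts in NSP libraries 1 to 4. The groups overlapped (log2 fold change without a filter 0.66, standard error 0.90, adjusted p = 0.753 from the edgeR test). TMEM243, a small transmembrane protein, had the most counts of the 10 genes on this side of ABCB1. It had 9.37, 13.4, 5.41 and 11.8 CPM in SP libraries 1 to 4 and 13.3, 8.40, 7.65 and 16.6 CPM in NSP libraries 1 to 4. The groups overlapped, and SP replicate 3 was the lowest of the 8. The log2 fold change was -0.21 (standard error 0.34, 95% interval -0.94 to 0.52, edgeR quasi-likelihood adjusted p = 0.828), and it became positive at 0.021 without SP replicate 3. Exons of TMEM243 and of DMTF1 on the other strand overlap by 178 bp.

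Of the 9 genes other than ABCB1, 0 were called at an adjusted p under 0.05 and a fold change over 1.3, by edgeR, by edgeR with the replicate number as a block and by DESeq2. Only TMEM243 and SRI were tested in the main edgeR fit and with the block, and 0 of them had an unadjusted p under 0.05 in the main fit. DESeq2 gave an adjusted p for these, DBF4 and ADAM22 only, so it could not call the rest. Over all 9309 genes, 1.63% were called higher and 2.03% lower in SP cells (3.66% in all), so 0 of 2 is a count near the background. The shares were 5.89% and 7.0% (12.9% in all) with the replicate block, 1.28% and 2.05% (3.33% in all) with DESeq2 and 1.15% and 1.45% (2.59% in all) without a filter.

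The summed level of the 9 genes overlapped between the groups. It was 35.3, 30.2, 26.5 and 30.2 CPM in SP libraries 1 to 4 and 27.1, 24.2, 31.3 and 42.2 CPM in NSP libraries 1 to 4. The mean was 30.5 ± 3.61 CPM in SP and 31.2 ± 7.88 CPM in the NSP group (SD, n = 4 each), NSP replicate 4 was the highest, and the difference was not tested. In SP cells the 4 libraries held 184 counts on ABCB1 and 184 on the other 9 genes. In NSP cells they held 26 and 210.

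The share of the counts of the 10 genes that fell on ABCB1 needs no normalization between libraries. It restates the ABCB1 counts by which the gene was chosen and is no further evidence of the difference. Strand bears on it too, since TMEM243 (137 counts) and SRI (118 counts), which held most of the other counts, have exons across exons of the other strand. It was 48.4%, 43.8%, 53.8% and 52.9% in SP libraries 1 to 4 and 5.56%, 5.77%, 20.97% and 10.3% in NSP libraries 1 to 4. All SP shares lay above all NSP shares. The exact 95% binomial interval of SP replicate 2 was 32.7% to 55.3% and that of NSP replicate 3 was 11.7% to 33.2%, and these overlap slightly. The group means were 49.7% ± 4.61 in SP and 10.6% ± 7.22 in NSP cells (SD, n = 4 each).

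**Figure D2:**
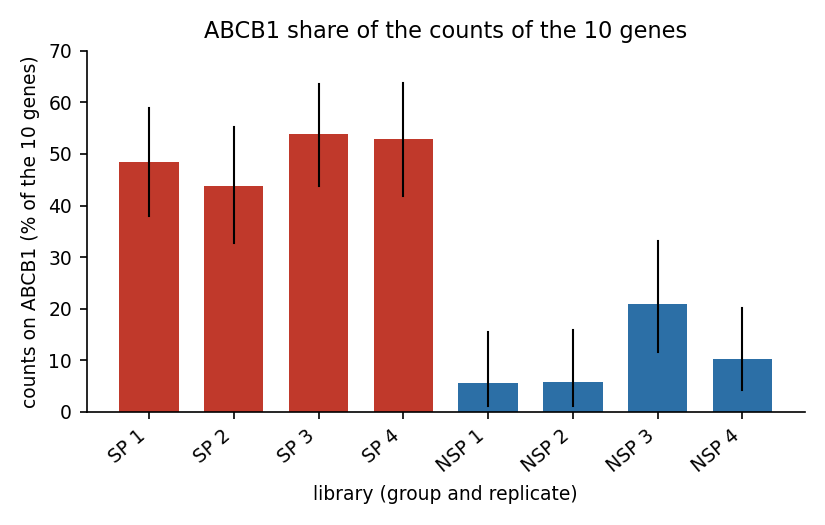
Share of the counts of the 10 genes that fell on ABCB1 (vertical axis, percent) in each SP and NSP library, with exact 95% binomial intervals as lines that cover counting error only. The SP libraries lie between 43.8% and 53.8% and the NSP libraries between 5.56% and 20.97%.

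Levels of different genes were compared per kb of merged exon. In SP cells ABCB1 was first with 4.72 ± 0.74 CPM per kb, ahead of TMEM243 with 3.06 ± 1.06 and SRI with 2.41 ± 0.79 (SD, n = 4 each), and the ranges of neighbours in this order overlapped. SRI was separated from DBF4, the next gene, at 0.613 ± 0.143 CPM per kb. Below DBF4 no 2 genes next to each other in the order differed beyond their ranges, down to CROT at 0.0335 and ABCB4 at 0.0175 CPM per kb.

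In NSP cells TMEM243 led with 3.51 ± 1.29 CPM per kb, followed by SRI with 2.01 ± 0.52, and their ranges overlapped. SRI was again separated from DBF4 (0.654 ± 0.256 CPM per kb), and ABCB1 came after DBF4 with 0.631 ± 0.502. The range of ABCB1 overlapped those of DBF4 above it and ADAM22 below it (0.278 ± 0.131 CPM per kb). ABCB1 thus stood at rank 1 of 10 in SP cells and at rank 4 in NSP cells, next to DBF4.

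Few genes around ABCB1 had enough counts for the test. Within 1 Mb on either side the table held 31 other genes, the 9 included, of which 16 had a count and 4 were tested: DMTF1, TMEM243, SRI and SRI-AS1. None was called by edgeR, by edgeR with the replicate block or by DESeq2, and 0 were higher and 1 lower at unadjusted p under 0.05 in edgeR. Of all tested genes, 8.13% were higher and 8.27% lower at that threshold, which is the background for such counts below. That gene was DMTF1, a cyclin D-binding transcription factor, with 50, 58, 47 and 38 counts in SP libraries 1 to 4 and 86, 90, 56 and 81 in NSP libraries 1 to 4. The log2 fold change of DMTF1 was -0.51, with a standard error of 0.21 and an adjusted p of 0.223 in the edgeR fit. STEAP4, the next coding gene after SRI on the telomeric side, had 0 counts in all libraries.

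Within 5 Mb there were 103 other genes, 45 with a count and 11 tested. Their log2 fold changes ran from -0.54 to 0.40 with a median of -0.09, where the median of all tested genes was 0.015, and 0 were called with or without the replicate block. On chromosome 7 as a whole 390 other genes were tested, of which 9 were called higher and 9 lower. With the replicate block 37 of them were called higher and 24 lower. Over all tested genes the shares called were 1.63% and 2.03%, and 5.89% and 7.0% with the block. ABCB1 had the highest log2 fold change of the 391, ahead of a maximum of 2.40 among the others, and ranked second of all 9309 genes tested after FOXC1. It was chosen by this difference and passed the filter only through its SP libraries, so its rank is a description and no evidence.

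**Figure D3:**
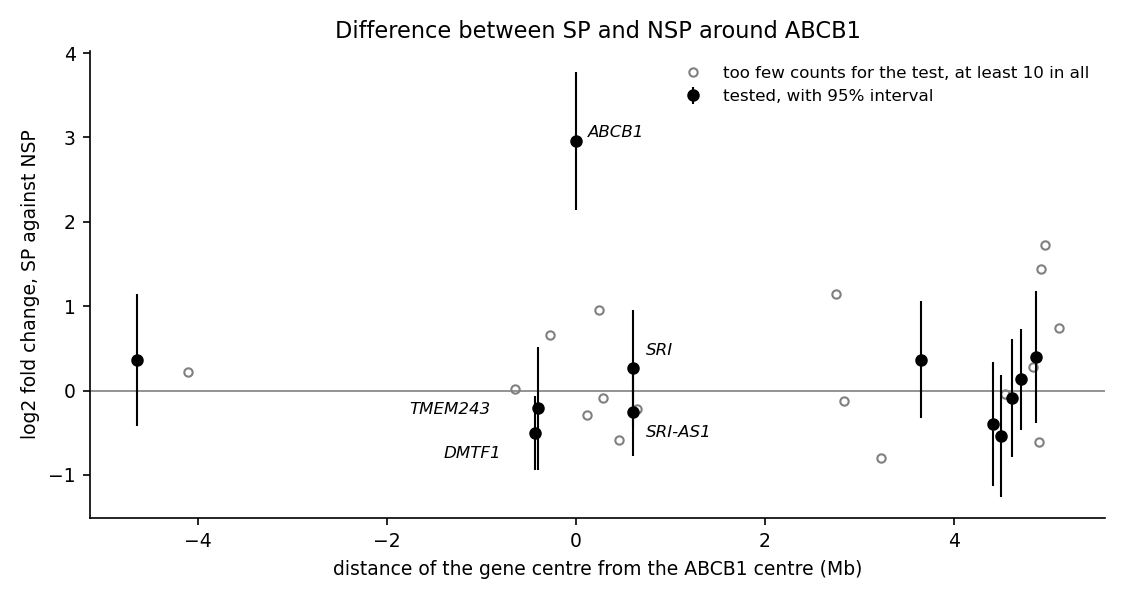
Log2 fold change of SP against NSP cells (vertical axis) by the distance of a gene's centre from that of ABCB1 in Mb, for genes within 5 Mb. Filled points with 95% intervals are the 12 tested genes and open circles are genes with at least 10 counts in all that were too low for the test. ABCB1 stands at 2.96 and the 11 other tested genes lie between -0.54 and 0.40.

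ABCG2, the other transporter of Hoechst dye, had 11 counts in SP and 3 in NSP cells, with means of 1.76 ± 1.24 and 0.452 ± 0.604 CPM (SD, n = 4 each). The groups overlapped and it was too low for the test. It is named for its role in the sort and not for its values. Among 9 other members of the ABCB subfamily, 3 were tested and 0 were called by edgeR or DESeq2, with 1 higher and 0 lower by an unadjusted p under 0.05. The highest was TAP1, a peptide transporter of antigen processing, at a log2 fold change of 0.44 (standard error 0.19, edgeR quasi-likelihood adjusted p = 0.242). With the replicate block TAP1 was called (log2 fold change 0.47, adjusted p = 0.0125). ABCB9, a lysosomal peptide transporter, was the lowest at -0.12 (standard error 0.13). ABCB5 and ABCB11, the bile salt pump, had 0 counts. TAP1, ABCB8 and ABCB9 all have exons across exons of the other strand, as do 58.5% of the tested genes with an annotation. The same holds for KRT7, KRT8, VIM and CD68 above and for EZR, CEBPB, MCM2, CRAT, SCP2, SLC7A11, GCLC and GCA below.

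A list of 29 transcription factors and cofactors known or proposed to act on ABCB1 was set beside it. Of these, 22 were tested, 2 were called higher and 0 lower, where 1.63% and 2.03% of all tested genes were. The median log2 fold change was 0.092 against 0.015 for all tested genes. FOXC1, which the study itself chose on these samples and which is therefore no independent evidence of the list's direction, had 65.6, 104, 46.0 and 98.6 CPM in SP libraries 1 to 4. In NSP libraries 1 to 4 it had 11.2, 8.40, 5.74 and 4.84 CPM, and the groups did not overlap. Its log2 fold change was 3.33 (standard error 0.31). FOXC1 passed the filter on low counts only through its SP libraries. Its value and its call, 1 of the 2 higher, are therefore a description and no evidence. HIF1A, the oxygen-regulated subunit of hypoxia-inducible factor, had 228, 214, 225 and 235 CPM in SP libraries 1 to 4 and 82.5, 122, 110 and 136 CPM in NSP libraries 1 to 4. The groups did not overlap, with a log2 fold change of 1.001 (standard error 0.16, adjusted p = 0.00332). HIF1A has exons across exons of the other strand.

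Factors of the list that bind CCAAT or GC boxes were not called in the main fit. YBX1, a Y-box binding protein, had a log2 fold change of -0.07 (standard error 0.13), SP1 of 0.097 (standard error 0.29) and NFYB, a subunit of NF-Y, of 0.72 (standard error 0.31, edgeR quasi-likelihood adjusted p = 0.25). With the replicate block 4 of the 22 were called higher, where NFYB (adjusted p = 0.0408) and CEBPB (log2 fold change 0.80 in the main fit, adjusted p = 3.09e-06 with the block) joined FOXC1 and HIF1A. Over all genes the block raised the share called higher from 1.63% to 5.89%. The lowest of the list was ETS1 at -0.37 (standard error 0.25). The xenobiotic receptor NR1I2, which induces ABCB1 in liver and gut, had 0 counts.

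Among 9 genes that anchor, move or turn over P-glycoprotein, 7 were tested, 0 were called higher and 1 lower. Of all tested genes 1.63% were called higher and 2.03% lower. CAV1, the coat protein of caveolae, had 29.5, 34.9, 54.1 and 28.7 CPM in SP libraries 1 to 4 and 88.3, 87.9, 76.5 and 70.5 CPM in NSP libraries 1 to 4. The groups did not overlap, and the log2 fold change was -1.12 (standard error 0.21, edgeR quasi-likelihood adjusted p = 0.00696). The membrane linkers EZR (-0.14), RDX (-0.15) and MSN (0.013) were not called. The median of the list was -0.14.

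Partners and relatives of the neighbours were described in the same way. The CDC7 kinase list around DBF4 had 10 of 12 genes tested and 0 called by edgeR or DESeq2, with 0 higher and 3 lower at unadjusted p under 0.05. It ran from -0.57 for TIMELESS to 0.38 for MCM6, and with the replicate block MCM2, a subunit of the replicative helicase that this kinase phosphorylates, was called lower (main log2 fold change -0.43, block adjusted p = 0.00943). The peroxisomal and carnitine list around CROT had 9 of 14 tested and 0 called by either tool, with 1 higher and 1 lower at unadjusted p under 0.05. It ran from -0.44 for SCP2 to 0.60 for CRAT, the carnitine acetyltransferase, and with the block CRAT was called higher (adjusted p = 0.00923) and SCP2 lower (adjusted p = 0.012).

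The glutathione list around SLC25A40 had 9 of 9 tested and 0 called by either tool, with 0 higher and 2 lower at unadjusted p under 0.05. SLC7A11, the cystine carrier, was the lowest at -1.44 (standard error 0.42, edgeR quasi-likelihood adjusted p = 0.0702), and GCLC, a subunit of the rate-limiting enzyme of glutathione synthesis, was the highest at 0.17. With the block SLC7A11 (adjusted p = 0.00116) and GPX4 (adjusted p = 0.00674) were called lower. The penta-EF-hand family to which SRI belongs had 6 of 6 tested and 0 called by either tool, with 1 higher and 1 lower at unadjusted p under 0.05. GCA, grancalcin, was the highest at 1.06 (standard error 0.35) and CAPN2, a calpain, the lowest at -0.58 (standard error 0.18). The block called CAPN2 lower (adjusted p = 0.0051) and GCA higher. GCA had 4.26, 5.43, 2.55 and 5.53 CPM in NSP libraries 1 to 4 and passed the filter only through its SP libraries. Its higher call and its unadjusted p are therefore a description and no evidence.

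**Figure D4:**
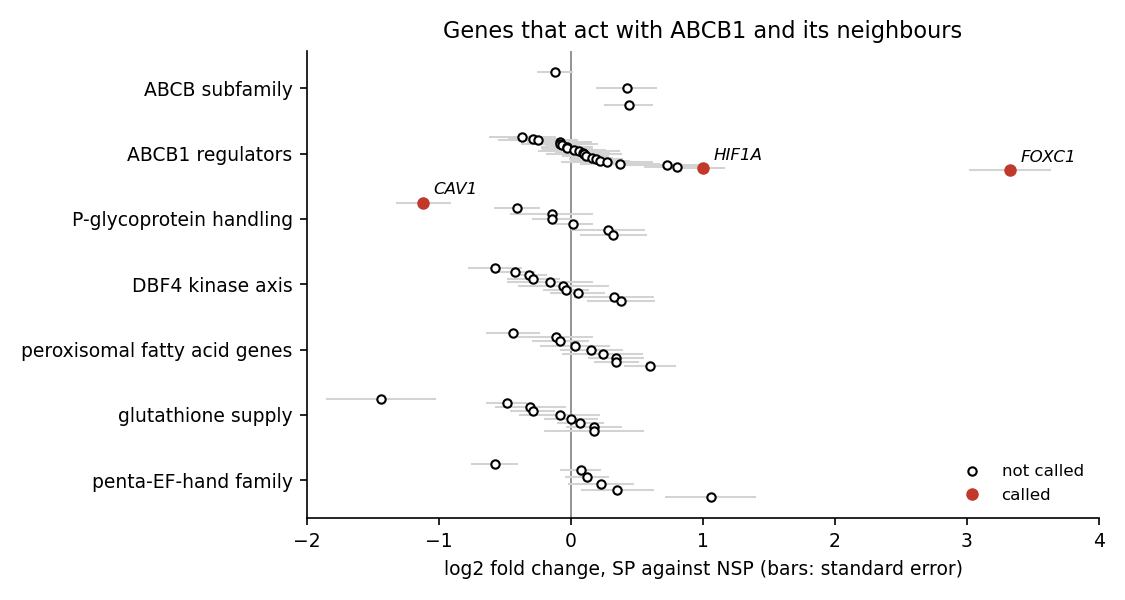
Log2 fold change of SP against NSP cells (horizontal axis, bars for the standard error) of the tested genes of 7 lists set beside the 10 genes. Filled points are called genes: FOXC1 at 3.33 and HIF1A at 1.001 among the ABCB1 regulators and CAV1 at -1.12 among the genes that handle P-glycoprotein.

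The genes whose values over the 8 libraries were most like those of ABCB1 lay on other chromosomes. Likeness was the root mean square distance between profiles of log2(CPM + 1), each centred on its own mean, and a smaller value means a closer profile. The 5 nearest of 9308 genes were the lncRNA ENSG00000226239 on chromosome 20 (0.603), MT-ND5 of the mitochondrial genome (0.605), EFNB2 on chromosome 13 (0.673), GAS1 on chromosome 9 (0.745) and MT-CYB of the mitochondrial genome (0.772). The median over all genes was 1.56. This distance takes in the difference between SP and NSP cells by which ABCB1 was chosen, so it favours other genes with higher counts in SP cells. Of the other tested genes only 390 lay on chromosome 7 and 4 within 1 Mb of ABCB1, so the place of the nearest genes says little. Both mitochondrial genes are on the plus strand, whose share of counts moved with the groups as given above, and the part of this in their likeness was not tested. MT-ND5 and MT-CYB encode subunits of respiratory complexes, EFNB2 is an ephrin ligand, and GAS1 is a membrane protein of growth-arrested cells that binds hedgehog ligands. ENSG00000226239 and EFNB2 have exons across exons of the other strand.

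EFNB2 had 2.13, 2.47, 7.02 and 4.15 CPM in NSP libraries 1 to 4, and replicate 3 was the highest and replicate 4 the next, as in ABCB1. GAS1 had 5.32, 14.8, 9.57 and 11.8 CPM in the same libraries, with replicate 2 the highest. In SP libraries 1 to 4 EFNB2 had 10.8, 12.7, 12.5 and 17.7 CPM and GAS1 had 47.6, 48.3, 45.5 and 42.7 CPM. FOXC1 was at rank 30 (0.941). The neighbours SRI and TMEM243 were at ranks 1234 (1.39) and 7464 (1.71).

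**Figure D5:**
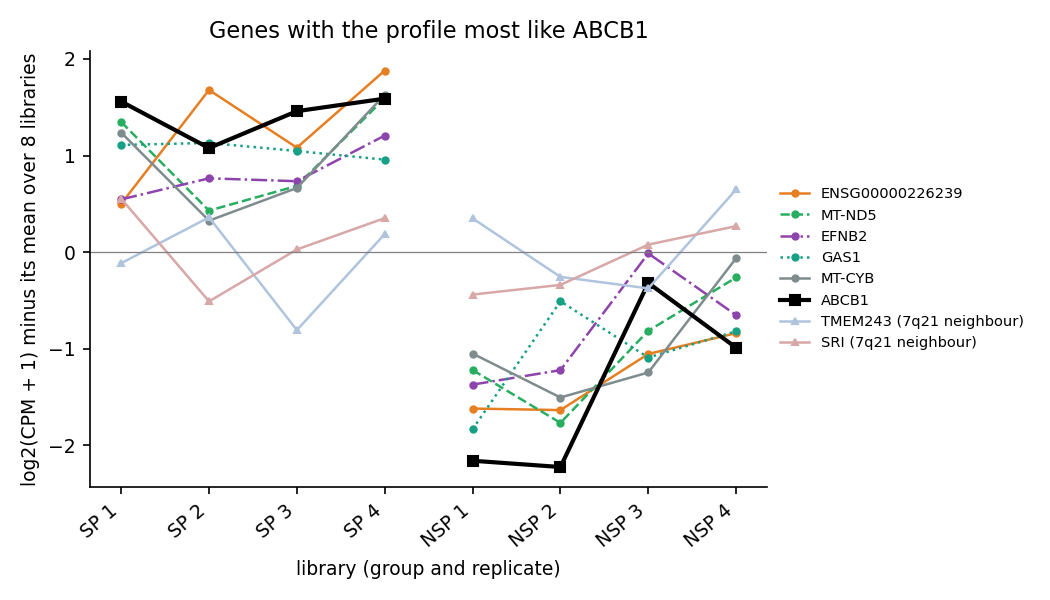
Log2(CPM + 1) minus its mean over the 8 libraries (vertical axis) for ABCB1, the 5 genes nearest to it and the neighbours TMEM243 and SRI, by library, with lines that only join the points of a gene within a group. ABCB1 and its 5 nearest genes are above 0 in every SP library and below 0 in every NSP library, and TMEM243 and SRI cross 0 within both groups. The 5 genes were picked by this profile, so their likeness to ABCB1 is no further evidence.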

How the data were processed

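Gene counts were analysed for 4 SP and 4 NSP libraries of J82 cells. Reads were single-end, of 50 bp. The authors aligned them to hg19 with STAR and used featureCounts with the GENCODE version 19 annotation, and the deposited counts are raw, without normalization. Settings for strand and for reads that match several genes are not given in the sources used here. Columns were assigned to libraries by name.

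Symbols, positions and exon lengths were joined by gene identifier from GENCODE version 44 mapped to GRCh37 (55538 genes; the others held 4.06% of counts). Exon lengths can differ from version 19. All genes were fitted with edgeR 4.0.16 in R 4.3.3 (TMM, filterByExpr with a minimum count of 10, quasi-likelihood test, no covariate) and adjusted by the Benjamini-Hochberg method over the 9309 tested genes. A gene was called at an adjusted p under 0.05 and a fold change over 1.3. The standard error is the log2 fold change divided by the square root of F. Genes under the filter take their values from the same fit without a filter. Permutation tests and intervals used scipy 1.17.1 and Python 3.11.15, and intervals from counts cover counting error only. The main edgeR fit and the DESeq2 fit were also run on simulated counts with the same dispersion for every gene. The fits without a filter and with the replicate block were not.

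Deviations of same-numbered SP and NSP libraries from their group means correlated at 0.203 to 0.380, and those of different numbers at -0.276 to 0.124. Libraries of the same number were therefore treated as pairs in alternatives only, which rests on the data and not on the labels. The main fit is unblocked, and a fit blocked on the replicate number stands beside it. Replicates of a group differed by more than sampling noise (chi-square per degree of freedom 5.63 to 13.5). Other alternatives were DESeq2 1.42.0, other normalizations and filters, and leaving out each library.

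The genes, lists and tests were chosen with earlier results of these data known. Named genes are the 10 genes, the called or else the highest and lowest tested genes of each list, the tested genes within 1 Mb, genes with exons across those of the 10, and the 5 nearest profiles. MT-ND6 and other mitochondrial genes, genes called only with the block, the promoter factors and genes given at 0 counts were added after their values were seen.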

Additional observations from a re-analysis of the deposited data

Results flagged for a closer look

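Of 44 groups of 4 libraries examined, 2 held a library set apart from the rest, and about 1 in 20 would by chance. Both rest on 1 count. In SP cells ABCB4 had its only count in replicate 3, and CROT had its only SP count in replicate 2. The gap to the nearest library was the whole range in both (1.0 for ABCB4 and 1.0 for CROT).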

How the results depend on the processing

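The log2 fold change of ABCB1 was 2.94 to 2.98 under the other normalizations, DESeq2, no filter and the replicate block, and 2.65 to 3.58 with single libraries left out. With at least 10 counts in every library ABCB1 was not tested. Calls among the other 9 genes and among genes within 1 Mb stayed at 0 under each alternative that was run. Genes too low for the filter were recomputed without one, with DESeq2, the block and each library left out. Left out singly, libraries turned the direction of RUNDC3B (0.056 without SP replicate 4), DBF4 (0.15 without NSP replicate 3 and 0.039 without SP replicate 2) and TMEM243 (0.021 without SP replicate 3), and all were uncalled. Their ranges over libraries left out were -0.64 to 0.056, -0.25 to 0.15 and -0.39 to 0.021.

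The replicate block raised the calls over all genes to 548 higher and 652 lower, ABCB1 regulators higher to 4, the ABCB subfamily, the peroxisomal list and the penta-EF-hand family higher to 1 each, the DBF4, peroxisomal and penta-EF-hand lists lower to 1 each and the glutathione list lower to 2. It changed no other call given here except those named beside their lists, those on chromosome 7 as a whole and VIM among the markers. The permutation p of CROT within pairs was 0.125. Without a filter, 303 genes were higher, 381 lower and 1 glutathione gene lower. With at least 10 counts in every library, 1 regulator was called higher, since FOXC1 was not tested. With single libraries left out, 69 to 164 genes were higher and 89 to 181 lower, both lowest without NSP replicate 2. Without SP replicate 2 there were 91 higher and 110 lower, and without NSP replicate 1 there were 93 higher. Glutathione genes called lower were 0 to 1, with 1 without NSP replicate 3 or SP replicate 4. With a pseudocount of 0.5, 3 of the 5 nearest genes were shared, and with Pearson's correlation 1 was. Left out of the share after the data were seen, TMEM243 and SRI moved the SP mean from 49.7% to 59.6% and 59.7%. The causes of these changes were not tested. Low counts limit the 7 genes with at most 40 counts, and whether depth or the way reads were counted made them low was not tested. The SP to NSP ratio had intervals, for counting error only, of 0.475 to 1.94 for DBF4 and 0.334 to 1.35 for ADAM22.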
